A study of Homo sapiens with 6 samples.

Results

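To examine how cholesterol and fatty acid synthesis respond when MUC1 is silenced, the 31 genes of a sterol and lipogenesis module were followed in RNA-seq counts from MDA-MB-436 cells, an established triple-negative breast cancer line. The genes were taken by symbol and split by role into 18 enzymes of sterol synthesis, 7 enzymes of fatty acid synthesis and desaturation, and 6 regulators and transport proteins. All 31 were found among the 37887 rows of the count table, and all 31 were among the 15355 genes that passed the filter on low counts. The cells of both groups carried the same stably expressed, tetracycline-inducible shRNA against MUC1. The control group received 0.1% DMSO as vehicle, and the shMUC1 group received 500 ng/ml doxycycline, with 3 libraries from triplicate cultures in each. Sample titles name the control libraries as control shRNA, while their treatment labels and the design describe the inducible MUC1 shRNA line without doxycycline. The latter was followed. Cells with a control shRNA and doxycycline were not analysed here, so doxycycline and MUC1 silencing cannot be told apart. The treatment time for this experiment is not given in the sources used here, and a line carrying 1 shRNA vector stands for the whole.

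Cholesterol is built from acetyl-CoA through the mevalonate pathway, by way of farnesyl pyrophosphate, squalene and lanosterol. Fatty acids are built from the same precursor, after citrate is cleaved in the cytosol. Both arms are under transcription factors of the SREBP family, encoded by SREBF1 and SREBF2. SCAP escorts these factors from the endoplasmic reticulum when sterols are low, and the INSIG proteins hold SCAP back when sterols are plentiful. SREBF2 is best known for the sterol arm and SREBF1 for the fatty acid arm. Tumour cells often draw on both arms for membrane growth.

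Promoter sequences were set beside the expression values, since SREBP factors act at promoters together with NF-Y, which binds CCAAT boxes. Windows from 250 bases before to 50 bases after the RefSeq start (GRCh38.p14) were at hand for 15 sterol enzymes, 6 fatty acid enzymes and 6 regulators. Each was searched on both strands for TCACNCCAC, a form of the sterol regulatory element, for CCAAT and for the E-box TCACGTGA. Matches to different motifs did not overlap in the members' windows. The 4 windows below show the only TCACNCCAC match, the only TCACGTGA match, a sterol promoter with 4 CCAAT boxes and a fatty acid promoter with 2, with the matches in capitals (ATTGG is CCAAT read from the other strand):
SREBF2, chr22:41832855-41833154, plus strand: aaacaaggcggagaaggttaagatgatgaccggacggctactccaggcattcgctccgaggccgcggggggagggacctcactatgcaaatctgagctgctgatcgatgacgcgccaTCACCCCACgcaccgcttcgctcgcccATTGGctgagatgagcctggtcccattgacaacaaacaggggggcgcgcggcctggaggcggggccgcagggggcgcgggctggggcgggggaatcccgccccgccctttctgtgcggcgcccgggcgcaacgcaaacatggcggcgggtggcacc
INSIG1, chr7:155297628-155297927, plus strand: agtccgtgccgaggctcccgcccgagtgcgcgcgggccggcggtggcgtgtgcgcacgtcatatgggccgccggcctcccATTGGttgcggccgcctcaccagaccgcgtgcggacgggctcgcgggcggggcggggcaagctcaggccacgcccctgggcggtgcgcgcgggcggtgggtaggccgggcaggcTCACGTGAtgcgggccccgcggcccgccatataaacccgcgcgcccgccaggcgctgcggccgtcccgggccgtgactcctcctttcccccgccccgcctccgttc
MSMO1, chr4:165327419-165327718, plus strand: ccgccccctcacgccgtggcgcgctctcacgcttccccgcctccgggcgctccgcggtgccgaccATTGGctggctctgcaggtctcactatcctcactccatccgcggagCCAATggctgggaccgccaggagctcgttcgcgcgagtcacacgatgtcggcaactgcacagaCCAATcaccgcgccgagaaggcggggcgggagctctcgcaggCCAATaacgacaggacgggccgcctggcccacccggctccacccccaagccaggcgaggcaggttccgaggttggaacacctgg
SCD, chr10:100346983-100347282, plus strand: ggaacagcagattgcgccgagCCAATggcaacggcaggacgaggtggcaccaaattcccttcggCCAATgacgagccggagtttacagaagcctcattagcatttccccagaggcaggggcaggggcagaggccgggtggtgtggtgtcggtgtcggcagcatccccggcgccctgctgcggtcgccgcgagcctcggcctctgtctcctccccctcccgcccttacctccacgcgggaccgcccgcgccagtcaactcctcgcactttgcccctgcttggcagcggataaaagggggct

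CCAAT was found in 12 of the 15 sterol windows (80%), in 2 of the 6 fatty acid windows (33.3%) and in 3 of the 6 regulator windows (50%). Of all 27305 windows in the reference table, 35.7% held it. The fatty acid genes with a CCAAT box were ACLY and SCD, and the regulators were SREBF2, INSIG1 and STARD4. TCACNCCAC was found in SREBF2 alone, beginning at position -133, against 1.15% of all windows. TCACGTGA was found in INSIG1 alone, beginning at position -56, against 1.04% of all windows. A match in these windows is a run of letters and not a measured binding site. Other forms of the sterol regulatory element and E-box were not searched for, so a window without a match may still hold one.

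**Figure D1:**
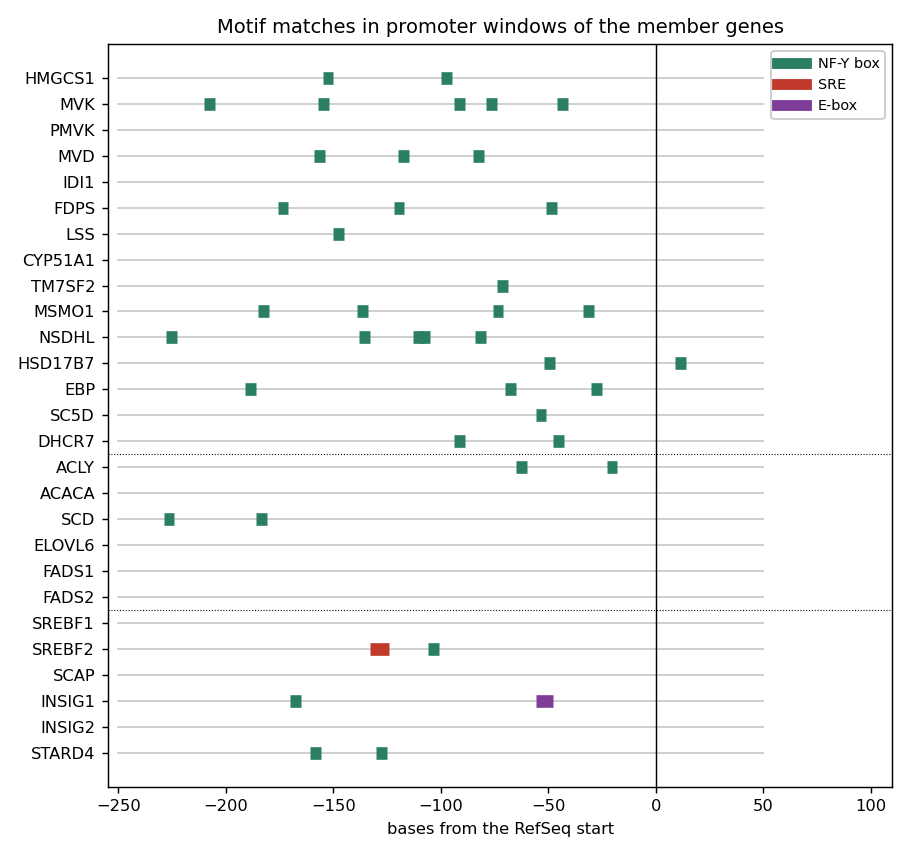
Position of CCAAT (NF-Y box), TCACNCCAC (SRE) and TCACGTGA (E-box) matches on either strand, in bases from the RefSeq start, for the members with a window. Dotted lines part sterol enzymes, fatty acid enzymes and regulators, from top to bottom, and CCAAT matches fill 12 of the 15 sterol rows.

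A 7-base word in 3′ untranslated regions was also set beside the values, because ATCAGTA had been tied to lower expression in an earlier analysis of these same libraries and so supports nothing by itself. In GENCODE release 29 the word was found in 3 of the 7 fatty acid enzymes (42.9%), in none of the 18 sterol enzymes and in none of the 6 regulators. Among 13023 tested genes with an annotated 3′ untranslated region, 12.8% held it. Fatty acid enzymes also had longer regions, with a median of 2328 bases against 656.5 bases in sterol enzymes and 1416 bases over all these genes. Of the annotated transcripts with such a region, 1 of 5 held the word in FADS1, 1 of 2 in ELOVL6 and 1 of 1 in SCD. Counts per gene do not tell which transcript was expressed. The 4 sites are given with 8 bases on either side and the word in capitals:
SCD, 3059 bases into the region: ggaggattATCAGTAtcacgatt
ELOVL6, 4509 bases into the region: ttccgacaATCAGTAtgaagggg
FADS1, 1465 bases into the region: atattcctATCAGTAtaatacta
FADS1, 2706 bases into the region: ggcccaatATCAGTAttcttttt

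The libraries held 18678307 to 27825546 counts each, and the 31 genes took 0.337% ± 0.01 of counts in control and 0.294% ± 0.00872 in shMUC1 libraries (SD, n = 3). MUC1 counts were 93, 84 and 102 with vehicle and 72, 51 and 34 with doxycycline. It fell by 0.84 on the log2 scale (SE 0.214, adjusted p = 0.00119, edgeR). Mitochondrially encoded genes took 3.74% ± 0.411 of counts in control and 5.10% ± 0.137 in shMUC1 libraries (SD, n = 3). The summed level of 5 epithelial markers (KRT8, KRT18, KRT7, CDH1 and EPCAM) was 542 to 576 counts per 1000000 counts (CPM) in control and 1090 to 1130 CPM in shMUC1 libraries. Most of that sum was KRT8, which rose from 426 to 825 CPM, and KRT18, which rose from 131 to 266 CPM. CDH1 rose from 0.489 to 6.02 CPM and EPCAM from 3.28 to 14.3 CPM, both from low levels. KRT7 did not pass edgeR's test (1.40 and 1.64 CPM). The 3 mesenchymal markers summed to 1700 to 1720 and 1700 to 1740 CPM, but moved in opposite directions within that sum. VIM (vimentin) fell from 718 ± 26.0 to 417 ± 25.2 CPM and ZEB1 from 35.1 ± 2.43 to 17.9 ± 0.584 CPM, while FN1 (fibronectin) rose from 962 ± 17.7 to 1285 ± 11.4 CPM (SD, n = 3). All 3 passed edgeR's test, with log2 fold changes of -0.78, -0.97 and 0.42. The hormone receptor markers ESR1, PGR and GATA3 summed to 2.46 to 2.79 CPM and 3.91 to 5.70 CPM. Of 3 leukocyte markers CD3E was at 0, and their sum was 3 to 3.41 CPM in control and 5.48 to 8.54 CPM in shMUC1 libraries. Adipocyte and hepatocyte markers, from cell types with lipid programmes of their own, each summed to less than 1 CPM in every library, with ADIPOQ and TTR at 0. The part of these shifts in the results that follow was not tested. Exons of 14 of the 31 genes overlap another gene on the opposite strand and those of 4 on the same strand, and 5 have pseudogenes named for them. In bulk RNA, fewer cells of a kind and less RNA per cell cannot be told apart.

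More of the genes fell than rose in shMUC1 cells. Of the 31 genes, 15 fell (48.4%) and 6 rose (19.4%) at an adjusted p under 0.05 by edgeR's quasi-likelihood test, and 10 did not pass. Over all 15355 genes tested, 23.6% fell and 25.2% rose by the same test. None of the 31 passed a fold change over 2 in either direction, which 3.74% of all genes did downward and 2.21% upward. CPM ranges of the groups were separate for 20 of the 31 (64.5%), against 54.8% of all genes. The median log2 fold change of the 31 genes was -0.11, beside 0.00058 over all genes. The largest fall was that of TM7SF2, and the largest rise was that of INSIG2.

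**Figure D2:**
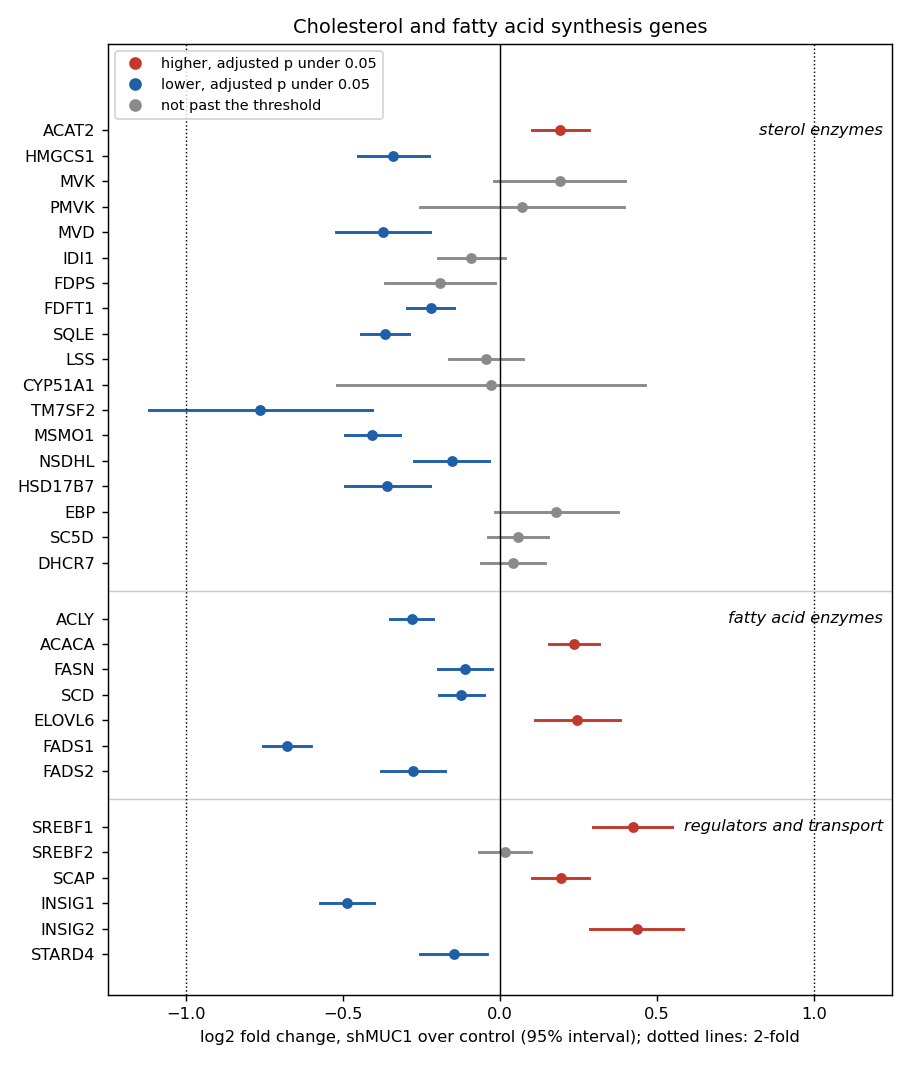
Log2 fold change of each of the 31 genes, shMUC1 over control, with its 95% interval from edgeR (3 libraries per group). Values ran from -0.76 for TM7SF2 to 0.44 for INSIG2, inside the dotted 2-fold lines.

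Sterol enzymes that passed the test fell, apart from ACAT2. Of the 18 enzymes, 8 fell (44.4%), 1 rose (5.56%) and 9 did not pass, with a median log2 fold change of -0.12. Over all 15355 genes tested, 23.6% fell, 25.2% rose and 7872 did not pass. Among the 7 that lead to farnesyl pyrophosphate, 2 fell (28.6%, near the share of all genes) and 1 rose (14.3%), with a median of -0.09. Among the 11 from squalene synthesis on, 6 fell (54.5%) and none rose, with a median of -0.15. The difference between these stretches of the pathway was not tested.

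In the early steps, ACAT2, which condenses acetyl-CoA units, rose by 0.19 on the log2 scale (SE 0.0445, adjusted p = 0.00043). ACAT2 had 1924 to 2684 counts per library. Its exons overlap TCP1 (10178 to 14948 counts) and SOD2 (3953 to 6532 counts) on the opposite strand. Strand settings of the counting are not given, so the ACAT2 count is uncertain. HMGCS1, the cytosolic HMG-CoA synthase, fell by 0.34 (SE 0.0557, adjusted p = 3.01e-06). MVD decarboxylates mevalonate pyrophosphate and lies at chr16:88651935-88663161 on the minus strand (GRCh38). MVD had 35.4, 30.3 and 34.0 CPM in control libraries and 25.8, 26.2 and 24.8 CPM in shMUC1 libraries. Every shMUC1 library lay below every control library, and MVD fell by 0.37 on the log2 scale (SE 0.0737, adjusted p = 5.55e-05). The kinases MVK and PMVK gave 0.19 (95% interval -0.02 to 0.40) and 0.07 (-0.25 to 0.39), and neither passed. MVK passed without shMUC1 replicate 1, at 0.28. IDI1, the isopentenyl pyrophosphate isomerase, gave -0.09 (-0.20 to 0.02) and passed with a trend on GC content and length removed, at -0.13. FDPS, which makes farnesyl pyrophosphate, gave -0.19 (adjusted p = 0.0651) and passed under 6 of 16 alternatives, among them leaving out control replicate 1 (-0.28) or shMUC1 replicate 3 (-0.24).

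SQLE and MSMO1 were among the most abundant sterol transcripts that fell. SQLE, the squalene epoxidase and a rate-limiting step, had 286, 270.0 and 279 CPM in control libraries and 206, 229 and 213 CPM in shMUC1 libraries. It held 22.4% of the summed sterol enzyme level in control cells. All shMUC1 libraries were below the controls, and SQLE fell by 0.37 on the log2 scale (SE 0.0371, adjusted p = 1.45e-10). MSMO1, the methylsterol monooxygenase at chr4:165327623-165343160 on the plus strand (GRCh38) whose promoter with 4 CCAAT boxes is printed above, had 133, 129.9 and 133 CPM in control and 94.5, 106 and 97.1 CPM in shMUC1 libraries. MSMO1 fell by 0.41 (SE 0.0433, adjusted p = 4.68e-10), with no overlap between groups. FDFT1, the squalene synthase, fell by 0.22 (SE 0.0373, adjusted p = 5.18e-06).

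TM7SF2, a sterol reductase at chr11:65111845-65116384 on the plus strand (GRCh38), had the largest fall at a low level. It had 7.12, 4.80 and 5.38 CPM in control libraries and 3.37, 3.53 and 3.23 CPM in shMUC1 libraries. The groups did not overlap, the control libraries were widely spread, and the log2 fold change was -0.76 (SE 0.176, adjusted p = 0.000402). Its exons overlap VPS51 on the same strand, which had 432 to 704 counts per library against 60 to 156 for TM7SF2, so its count is uncertain. HSD17B7, a keto-reductase of the same stretch, fell by 0.36 (SE 0.0662, adjusted p = 2.08e-05), and its pseudogene HSD17B7P2 had 13 to 37 counts per library. NSDHL, which acts in removal of the lanosterol methyl groups, fell by 0.15 (SE 0.0588, adjusted p = 0.0293). The NSDHL call was lost with DESeq2 (-0.15) and without control replicate 1, shMUC1 replicate 1 or shMUC1 replicate 3 (each -0.12).

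The remaining sterol enzymes did not pass. LSS, which closes the rings to lanosterol, gave -0.04 (95% interval -0.16 to 0.07). SC5D, a late desaturase, gave 0.06 (-0.04 to 0.15), and DHCR7, which carries out the last reduction to cholesterol, gave 0.04 (-0.06 to 0.14). EBP, the sterol isomerase, gave 0.18 (-0.02 to 0.38, adjusted p = 0.127) although its groups did not overlap. CYP51A1, the lanosterol demethylase, had only 48 to 73 counts per library and an interval from -0.52 to 0.46. Its pseudogenes CYP51A1P2 and CYP51A1P1 had 26 to 42 and 12 to 26 counts, and its exons overlap AC000120.2 and AC000120.3 on the same strand, which leaves its level uncertain. The 12 sterol enzymes with a CCAAT box in the window had a median log2 fold change of -0.17, with 6 lower, and the 3 without (PMVK, IDI1 and CYP51A1) had -0.03, with none called. ACAT2, FDFT1 and SQLE, which had no window, are in neither group. Over all genes tested, 23.6% were lower. The IDI1 window (chr10:1056655-1056954) lies outside the annotated position of IDI1 (chr10:1039152-1049170), so it may not describe the start of the counted gene. PMVK and CYP51A1 had wide intervals, and the difference between the groups was not tested.

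All 7 fatty acid enzymes passed the test, in both directions. ACLY, FASN, SCD, FADS1 and FADS2 fell (71.4%) and ACACA and ELOVL6 rose (28.6%, near the share of all genes). Over all genes tested, 23.6% fell and 25.2% rose. The median log2 fold change of the 7 was -0.12. The desaturase FADS1 changed most. FADS1 makes the final double bond of arachidonic acid and lies at chr11:61799625-61829318 on the minus strand (GRCh38). It had 369, 362 and 355 CPM in control libraries and 223, 242 and 211 CPM in shMUC1 libraries. The groups were far apart, and FADS1 fell by 0.68 on the log2 scale (SE 0.0375, adjusted p = 1.23e-17), to 62.4% of control. Its neighbour FADS2, the first desaturase of the same route at chr11:61792980-61867354 on the plus strand, had 97.9, 89.6 and 103 CPM in control and 76.5, 85.6 and 77.1 CPM in shMUC1 libraries. FADS2 fell by 0.28 (SE 0.0505, adjusted p = 1.71e-05), again without overlap. The exons of FADS1 and FADS2 overlap on opposite strands, and FADS2 overlaps FEN1 (1850 to 2915 counts) on its own strand, so part of their counts is uncertain.

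The enzymes that build palmitate did not move together. ACLY, which cleaves citrate to cytosolic acetyl-CoA, lies at chr17:41866908-41930542 on the minus strand (GRCh38). It had 252, 246 and 259.6 CPM in control libraries and 206, 207 and 210.0 CPM in shMUC1 libraries. ACLY fell by 0.28 (SE 0.0343, adjusted p = 9.75e-09), with every shMUC1 library below the controls. ACACA, the acetyl-CoA carboxylase that commits carbon to fatty acids, rose by 0.24 (SE 0.0395, adjusted p = 4.39e-06). FASN, the fatty acid synthase, fell by 0.11 (SE 0.0421, adjusted p = 0.0257), with overlapping groups. The FASN call was lost with DESeq2 (-0.11) and without control replicate 3 (-0.05), shMUC1 replicate 1 (-0.12) or shMUC1 replicate 3 (-0.08). With a trend on GC content and length removed, FASN turned sign, to 0.0054.

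Elongation and desaturation past palmitate also differed by gene. ELOVL6, the elongase of palmitate at chr4:110045846-110199199 on the minus strand (GRCh38), had 36.3, 35.4 and 34.9 CPM in control and 42.4, 45.5 and 38 CPM in shMUC1 libraries. ELOVL6 rose by 0.25 (SE 0.0666, adjusted p = 0.00226), with no overlap. SCD, which makes oleate from stearate, held the largest share of the arm in control cells, 26.1% of its summed level. It fell by 0.12 (SE 0.035, adjusted p = 0.00348), and the call was lost without control replicate 1 (-0.08) or shMUC1 replicate 3 (-0.09). Of the 3 enzymes with ATCAGTA sites printed above, FADS1 and SCD therefore fell and ELOVL6 rose.

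**Figure D3:**
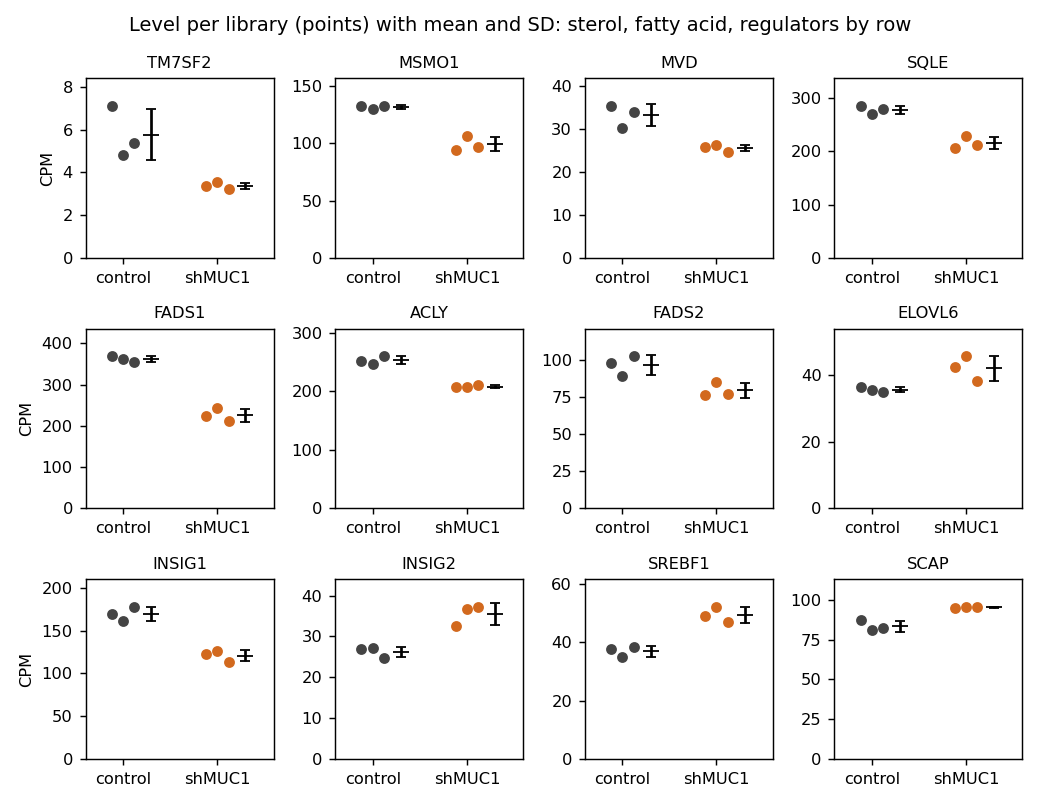
CPM in each library (points) with mean and SD (bars, n = 3) for the 4 genes of each role with the largest change that passed the test. Axes start at 0. The groups do not overlap in any of the 12 panels, which the choice of the largest changes favours, and 54.8% of all genes tested had separate groups.

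The regulators moved in opposite directions. Of 6, 3 rose (SREBF1, SCAP and INSIG2), 2 fell (INSIG1 and STARD4) and SREBF2 did not pass, with a median log2 fold change of 0.10. These are 50% higher and 33.3% lower, beside 25.2% and 23.6% of all genes tested. The INSIG genes were split. INSIG1, which is itself a sterol-responsive SREBP target, lies at chr7:155297776-155310235 on the plus strand (GRCh38). It had 169.6, 161 and 178 CPM in control libraries and 122, 126 and 114 CPM in shMUC1 libraries, and fell by 0.49 (SE 0.0423, adjusted p = 2.80e-12). INSIG2, at chr2:118088452-118110997 on the plus strand, had 26.8, 27.1 and 24.7 CPM in control and 32.5, 36.7 and 37.3 CPM in shMUC1 libraries. INSIG2 rose by 0.44 (SE 0.073, adjusted p = 4.55e-06), and neither INSIG gene overlapped between groups.

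SREBF1 rose while SREBF2 did not pass. SREBF1, at chr17:17810399-17837002 on the minus strand (GRCh38), had 37.6, 34.8 and 38.4 CPM in control libraries and 49.1, 52.2 and 47.0 CPM in shMUC1 libraries. All shMUC1 libraries lay above the controls, and SREBF1 rose by 0.42 (SE 0.0621, adjusted p = 4.47e-07). Its exons overlap RAI1 on the opposite strand, which had 572 to 978 counts per library against 825 to 1356 for SREBF1, so part of its count is uncertain. SREBF2, whose promoter holds the TCACNCCAC match printed above, gave 0.01 (95% interval -0.07 to 0.10). SCAP, at chr3:47413694-47477126 on the minus strand, had 87.1, 80.8 and 81.9 CPM in control and 94.7, 95.2 and 95.6 CPM in shMUC1 libraries. SCAP rose by 0.19 (SE 0.0445, adjusted p = 0.000421), without overlap. STARD4, a cytosolic sterol carrier, fell by 0.15 (SE 0.0528, adjusted p = 0.0194), and its call was lost without control replicate 3 (-0.13), shMUC1 replicate 1 (-0.14) or shMUC1 replicate 3 (-0.11). STARD4 exons overlap STARD4-AS1 on the opposite strand, which had 109 to 255 counts per library against 1042 to 1746 for STARD4. Part of the STARD4 count is therefore uncertain.

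Ratios within a library set related genes against each other, for 3 pairs chosen after their values were seen. INSIG1 to INSIG2 was 6.50 ± 0.648 in control and 3.42 ± 0.359 in shMUC1 libraries (SD, n = 3). SREBF1 to SREBF2 was 0.300 ± 0.0142 and 0.397 ± 0.00321, and FADS1 to FADS2 was 3.76 ± 0.287 and 2.83 ± 0.0913 (SD, n = 3). None of the 3 ratios overlapped between groups, and each had an exact two-sided permutation p of 0.1 (adjusted over the 3 pairs 0.1), the smallest that 3 libraries against 3 allow.

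The sterol and fatty acid arms were then set against each other. The summed level of the 18 sterol enzymes was 1243 ± 30.2 CPM in control and 1095 ± 44.9 CPM in shMUC1 libraries (SD, n = 3), 11.9% lower. The 7 fatty acid enzymes summed to 1603 ± 45.4 and 1386 ± 45.8 CPM (SD, n = 3), 13.5% lower. In either arm every shMUC1 sum lay below every control sum. The sterol sum divided by the fatty acid sum was 0.786, 0.778 and 0.761 with vehicle and 0.764, 0.798 and 0.807 with doxycycline. These ratios overlapped, and the median log2 fold changes of the arms differed by 0.0006. The sums rest on a few transcripts: SQLE, FDFT1 and MSMO1 held 22.4%, 15.1% and 10.6% of the sterol sum in control cells, and SCD, FADS1, FASN and ACLY held 26.1%, 22.6%, 17.1% and 15.8% of the fatty acid sum. The fall of the fatty acid sum came mostly from FADS1, which went from 362 to 226 CPM. ACLY went from 253 to 208 CPM and SCD from 419 to 384 CPM, while ACACA and ELOVL6 rose. In the sterol sum, SQLE went from 278 to 216 CPM.

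Per kilobase of annotated exon, the level in control cells was highest for SCD, at 78.1 CPM, followed by SQLE at 64.6, ACLY at 48.4, INSIG1 at 46.5 and MSMO1 at 45.6. CYP51A1 was lowest at 0.730, below TM7SF2 at 1.69.

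**Figure D4:**
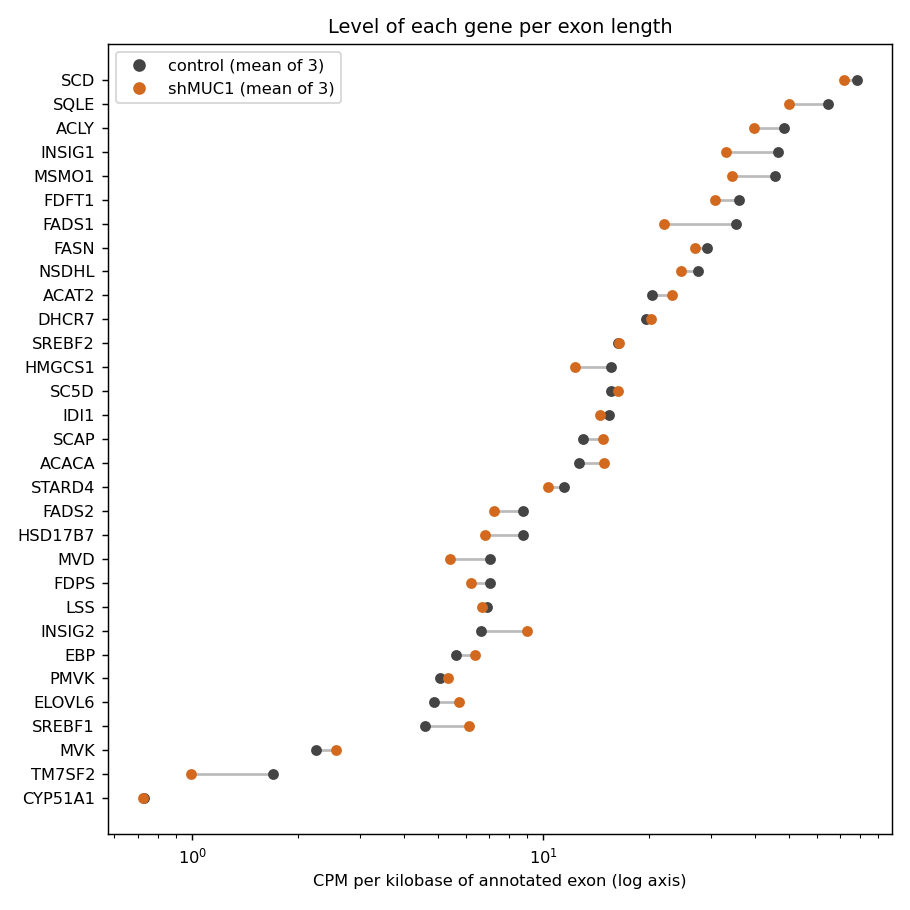
Mean level of each of the 31 genes in CPM per kilobase of annotated exon (log axis), in control and shMUC1 libraries (n = 3 each). Control levels run from 0.730 for CYP51A1 to 78.1 for SCD.

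Neighbouring lipid lists were examined by the same test, by which 25.2% of all genes rose and 23.6% fell. In the isoprenoid branch, which uses farnesyl pyrophosphate for prenylation, dolichol and ubiquinone, 2 of 14 genes rose (14.3%) and 3 fell (21.4%), both shares below those of all genes, with a median of -0.02. RCE1, the protease that trims prenylated proteins, fell by 1.02 on the log2 scale (SE 0.0827, adjusted p = 4.41e-13) and was the only one past 2-fold. RABGGTB, a subunit of the Rab prenyltransferase, fell by 0.47 (SE 0.0494, adjusted p = 2.76e-10). In sterol feedback, uptake and trafficking, 8 of 19 rose (42.1%) and 5 fell (26.3%, near the share of all genes), with a median of 0.14. ABCA1, the cholesterol exporter, rose by 0.68 (SE 0.0561, adjusted p = 9.75e-13), and MBTPS2, a protease that releases SREBP, fell by 0.43 (SE 0.0414, adjusted p = 5.36e-11). Of 20 other lipogenesis genes, 19 could be tested, and 8 rose (42.1%) and 4 fell (21.1%, near the share of all genes), with a median of 0.08. SCD5, a second stearoyl-CoA desaturase, rose by 0.83 (SE 0.047, adjusted p = 2.07e-17), and DGAT2, which makes triacylglycerol, fell by 0.61 (SE 0.106, adjusted p = 7.42e-06). Without shMUC1 replicate 1, 5 of these 19 rose, beside 22.2% of all genes in that fit.

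**Figure D5:**
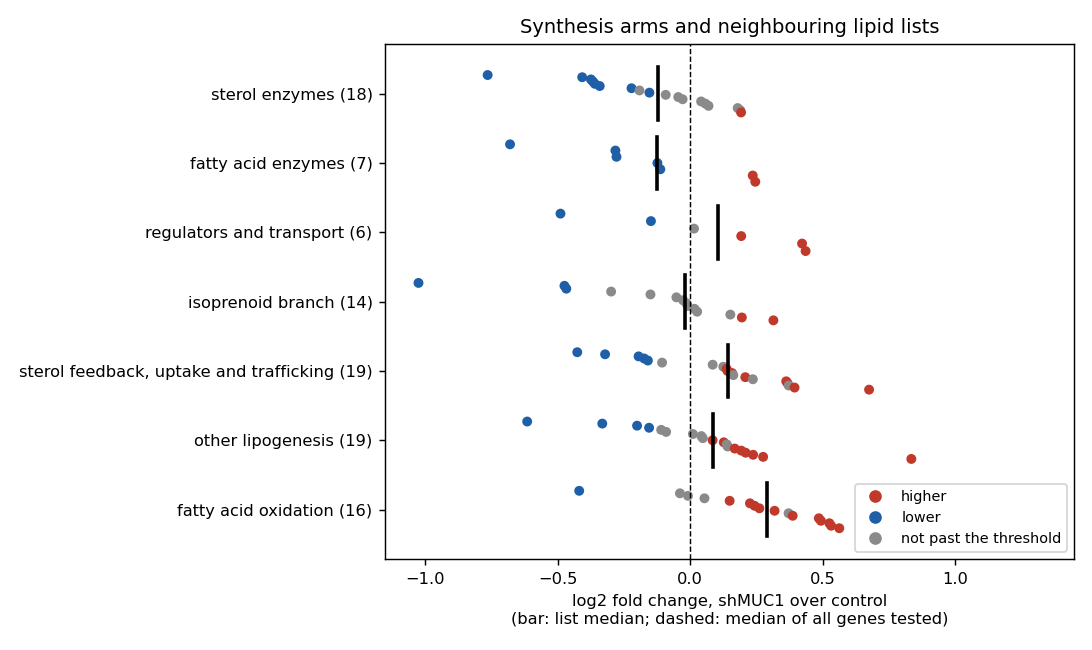
Log2 fold change of every tested gene in the 3 role groups and 4 neighbouring lists (points, coloured by edgeR call), with list medians as bars. Medians run from -0.12 in both synthesis arms to 0.29 in fatty acid oxidation.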

How the data were processed

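Total RNA from MDA-MB-436 cells was sequenced after a stranded mRNA library preparation, per the labels. The authors deposited raw read counts per gene symbol, 1 column per library. The submitters' processing notes name CASAVA 1.8.2, STAR 2.7.9a, featureCounts, DESeq2 1.24.0 and GRCh38.p7. Strand and multi-mapping settings are not given in the sources used here, so counts of overlapping genes and copies are uncertain. Among values of 1 to 20 counts, 69.6% were even in control and 70.2% in shMUC1 libraries, and halved counts were tried. Nothing beyond the label of triplicate cultures shows that replicates were independent, so p-values measure the spread between these libraries.

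Counts were tested across 15355 genes with edgeR 4.0.16 (filterByExpr, TMM scaling, quasi-likelihood test, two-sided, Benjamini-Hochberg adjustment) in R 4.3.3. CPM used TMM-scaled library sizes. Roles were assigned from general knowledge. Position and exon length came from GENCODE release 29, where 98.1% of rows matched, and promoters came from RefSeq. Members and lists were chosen with earlier results of these data known. Per-library values are given for the 4 members of each role with the largest change that passed, and 2 genes are named from each neighbouring list with a mean of at least 50 counts. Alternatives were RLE factors, library totals, other filters, DESeq2 1.42.0, limma 3.58.1 (voom), a replicate block, halved counts, mitochondrial genes left out, a GC and length trend removed, a 2-fold rule and each library left out. Applying them to the neighbouring lists was chosen after seeing the data. The script was tested on simulated data.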

Additional observations from a re-analysis of the deposited data

How the results depend on the processing

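Of 496 values (31 genes under 16 alternatives), 465 kept direction and side of the threshold, 13 lost a call, 8 gained one and 10 turned sign; 20 genes kept both throughout. edgeR called 21 of the 31, and DESeq2 called 19 of them. Of all genes tested, edgeR called 25.2% higher and 23.6% lower, and DESeq2 called 19.4% higher and 17.7% lower. The difference of arm medians lay near 0 and turned sign with limma-voom (-0.0047), halved counts (-0.00025) and a GC and length trend taken out (-0.027), and ran from -0.063 to 0.027 with 1 library left out. Under the 2-fold rule the counts higher and lower were 0 in both arms. With 1 library left out, sterol enzymes higher numbered 1 to 2, fatty acid enzymes lower 3 to 5 and regulators lower 1 to 2. Of all genes in those fits, 22.2% to 23.1% were higher and 20.4% to 22.2% lower. FASN turned to 0.0054 with the GC and length trend removed, and SREBF2 to -0.0073 with library totals and -0.0080 above a mean of 50 counts. With 1 library left out, SREBF2 ran from -0.018 to 0.048, PMVK from -0.072 to 0.30, CYP51A1 from -0.19 to 0.21 and DHCR7 from -0.013 to 0.076. In the neighbouring lists, isoprenoid genes lower numbered 5 of 14 with the GC and length trend removed. Of all genes in that fit, 23.6% were lower, so the isoprenoid share was not below that of all genes there. The isoprenoid median ran from -0.086 to -0.014 with 1 library left out. The other lipogenesis median was 0.062 above a mean of 50 counts. Other lipogenesis genes higher numbered 5 to 8 with 1 library left out, beside 22.2% to 23.1% of all genes. The fatty acid oxidation median was 0.268 with library totals, 0.267 above a mean of 50 counts and 0.261 to 0.315 with 1 library left out. The causes were not tested. Same-numbered libraries did not deviate together (correlations 0.021, -0.019 and -0.035). A pairing with a weak effect would look the same, so this cannot show whether the cultures were paired. With a replicate block, 1 sterol enzyme was higher and 8 lower, and 2 fatty acid enzymes were higher and 5 lower. Of all genes in that fit, 25.3% were higher and 23.4% lower. The arm medians with the block were -0.12 and -0.12. Genes with few counts, such as CYP51A1 with 48 to 73, had wide intervals (-0.52 to 0.46 for CYP51A1).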

Other observations

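More genes of fatty acid oxidation, the breakdown route opposite to the fatty acid arm, rose than fell in shMUC1 cells. Of 16 genes, 11 rose (68.8%), 1 fell and 4 did not pass (ACADS, ECHS1, PPARA and PPARGC1A, named after their values were seen), with a median log2 fold change of 0.29, beside 25.2% higher and 23.6% lower over all genes tested. HADHB, a subunit of the mitochondrial trifunctional protein, had 72.8 ± 2.28 CPM in control and 105 ± 4.88 CPM in shMUC1 libraries (SD, n = 3). It rose by 0.53 on the log2 scale (SE 0.0461, adjusted p = 2.86e-12, edgeR). ETFB, a subunit of the electron transfer flavoprotein, rose by 0.56 (SE 0.178, adjusted p = 0.00843), and its call was lost without control replicate 2, at 0.42. The gene that fell was CPT1A, which admits fatty acids to mitochondria, at -0.42 (named after its value was seen). Mitochondrially encoded genes also took a larger share of counts in shMUC1 libraries (5.10% ± 0.137 against 3.74% ± 0.411, SD, n = 3), and the part of this in the oxidation list was not tested.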
